A study of Mus musculus with 6 samples.

Results

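CC chemokines are small secreted proteins named for a pair of neighbouring cysteines, and they draw leukocytes along a gradient by binding receptors on them. Airway smooth muscle, the contractile layer around the airways, is known as a source of several, above all of eotaxin (Ccl11), which attracts eosinophils through the receptor Ccr3. Inflammatory signals such as TNF, IL-1 and IL-13 are known to switch on these genes through NF-kB and STAT6. The 6 genes described here are Ccl2, Ccl5, Ccl7, Ccl8, Ccl9 and Ccl11, taken by symbol from a table of 17023 genes. All 6 had a row and all 6 passed the filter on low counts, as did 12936 genes in total.

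RNA was measured in primary airway smooth muscle cells from the lungs of wild-type mice after 5 days in transwell plates, whose porous membrane holds apart cells that share a medium. The study's stated aim was to find the cause of a proliferation phenotype of the muscle. In the co-culture group (3 libraries, numbered 1 to 3) mouse airway epithelial cells were cultured along with the muscle cells, and in the control group (3 libraries, numbered 4 to 6) there were none. The labels do not state the age or strain of the mice, their number, or whether replicates are separate cultures. The p-values therefore measure the spread between these 6 samples and that spread may be technical.

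Library totals ran from 17496056 to 18496623 estimated counts. Control library 4 stood apart: a chi-square per degree of freedom over genes, at which 1 would mean counting noise alone, was 77.6 and 84.6 against control libraries 5 and 6, which gave 2.87 against each other, and 3.54 to 5.68 among co-culture libraries. The chemokine results and the counts of the gene lists are therefore given with and without it. The smooth muscle markers were mixed. Acta2 ranged from 47.0 to 78.9 CPM with epithelium and from 125 to 152 CPM in controls, Mylk from 118 to 146 CPM and from 79.7 to 113 CPM, and Smtn from 109 to 145 CPM over all libraries. Myh11 (0.680 to 1.54 CPM), Cnn1 (0.321 to 1.05 CPM) and Des (0.247 to 0.588 CPM) were near 0 in every library. Myocd, the cofactor that drives the contractile genes, had the largest change among these markers, from 0.109 to 0.124 CPM in controls to 0.772 to 0.833 CPM in co-culture. Its log2 fold change was 2.75 ± 0.32 (edgeR adjusted p = 0.0020), with the call lost on the log2(FPKM + 1) scale (limma adjusted p = 0.0651). Myocd had 2 reads in each control library and 16, 14 and 15 in co-culture. It passed the filter on low counts only through co-culture, so the call carries little weight. Under a filter of at least 1 CPM in 3 libraries it was not tested. The fibroblast markers Pdgfra and Dcn stood at 630 to 907 CPM and 288 to 468 CPM. Of 12 listed smooth muscle markers 11 were tested, 3 fell and 1 rose, or 6 and 3 if control library 4 is not used. Over all tested genes, 10.3% fell and 10.3% rose, or 19.9% and 18.7% without that library. Summed levels of these markers were 367 to 415 CPM in co-culture, 444 CPM in control library 4 and 466 to 477 CPM in control libraries 5 and 6. CPM is a count scaled to a library of fixed size after TMM scaling, and values are mean ± SD over 3 libraries.

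The shared signature of the family is visible in the coding sequence of each gene. Below, 60 bases are shown around the codons of the neighbouring cysteines, which stand in capitals, read 5′ to 3′ from the GENCODE M21 transcripts of the GRCm38 assembly.
Ccl2: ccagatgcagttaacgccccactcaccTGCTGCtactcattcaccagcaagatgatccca
Ccl7: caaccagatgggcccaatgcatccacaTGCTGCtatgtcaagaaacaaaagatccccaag
Ccl11: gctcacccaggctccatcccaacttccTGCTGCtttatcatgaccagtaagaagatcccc
Ccl8: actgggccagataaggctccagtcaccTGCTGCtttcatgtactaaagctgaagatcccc
Ccl5: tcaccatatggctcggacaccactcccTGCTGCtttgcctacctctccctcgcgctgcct
Ccl9: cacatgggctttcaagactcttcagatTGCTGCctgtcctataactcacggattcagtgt
All 6 use the same 6 bases for the pair. Ccl7, Ccl8 and Ccl11 have coding sequences of equal length, 291 bases, and Ccl2 is longer, at 444 bases. Among Ccl2, Ccl7, Ccl8 and Ccl11, pairwise identity over aligned coding bases ran from 62.4% (Ccl8 and Ccl11) to 68.4% (Ccl2 and Ccl11), and the longest run of bases shared by a pair was 20. Ccl9 and its neighbour Ccl6 were at 70.5% with a longest shared run of 23 bases. Ccl8 and its neighbour Ccl12 were also at 70.5%, with a longest shared run of 12 bases.

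All 6 lie on mouse chromosome 11 in 2 groups (GRCm38, which mm10 denotes). Ccl2 (gene ID 20296, 82035577 to 82037452), Ccl7 (20306, 82045712 to 82047525), Ccl11 (20292, 82057832 to 82062955) and Ccl8 (20307, 82115185 to 82116799) fall within 81.2 kb, with Ccl12 between Ccl11 and Ccl8. Ccl5 (20304, 83525778 to 83530518) and Ccl9 (20308, 83572917 to 83578636) follow 1.41 Mb farther on. Each is protein coding, and each was counted on a single RefSeq transcript whose counts equalled those of the gene.

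Of the 6 chemokines, Ccl11 alone passed the test with all libraries: it fell, on average 8.71-fold, in cells that shared the plate with epithelium. None rose. Over all genes tested, 10.3% fell and 10.3% rose. A gene is said to have risen or fallen when its p from edgeR's quasi-likelihood test, adjusted by Benjamini-Hochberg over all tested genes, was under 0.05. Of the calls, 50.1% were rises, against 69.4% and 68.7% on the log2(FPKM + 1) and log2(FPKM + 0.1) scales, where the median over all genes was 0.06 and 0.07. For both of these scales FPKM was taken from library totals without TMM scaling. The median log2 fold change of the 6 was -0.18, against -0.04 over all genes tested. Groups did not overlap for Ccl11 and Ccl8, which makes 2 of 6, where 42.8% of all genes had groups that did not overlap. Without control library 4, Ccl2 and Ccl7 rose while Ccl8 and Ccl11 fell, when 18.7% of genes rose and 19.9% fell, and the median of the 6 was 0.09.

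**Figure D1:**
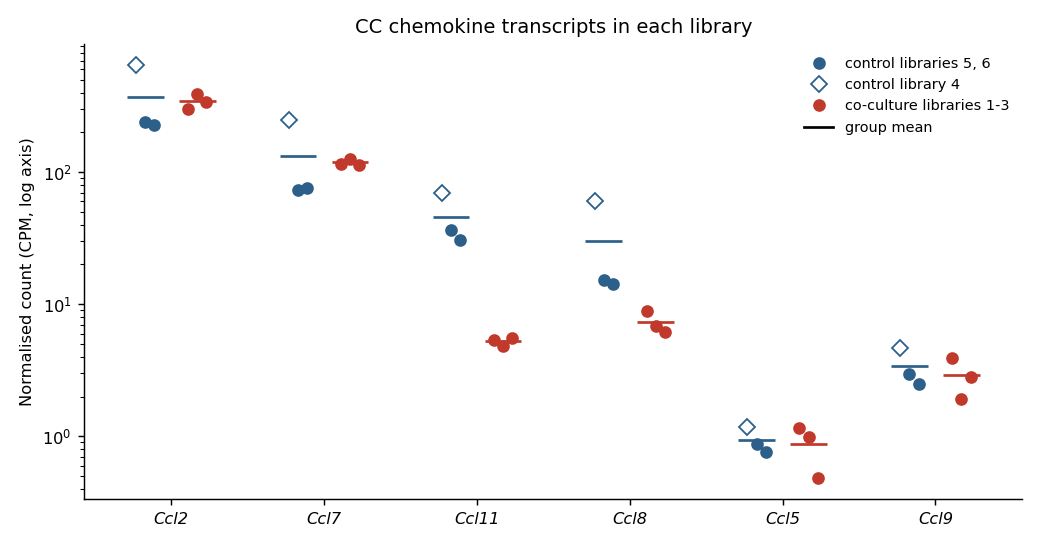
Normalised counts (CPM, log axis) of the 6 CC chemokines in each library, with controls in blue, control library 4 as an open diamond, co-culture in red and group means as lines; levels are to be compared within a gene, since genes differ in length. Ccl11 lies at 4.80 to 5.56 CPM in co-culture, against 30.7 to 69.9 CPM in controls, and control library 4 is the highest of the controls for every gene shown.

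Ccl11, eotaxin, stood at 5.36, 4.80 and 5.56 CPM in co-culture libraries 1, 2 and 3 and at 69.9, 36.3 and 30.7 CPM in control libraries 4, 5 and 6. Counts behind these values were 87 to 104 reads per library in co-culture and 566 to 1131 in controls. The co-culture libraries lay close together and far below the lowest control. The change was a log2 fold change of -3.12 ± 0.33 (SE; edgeR adjusted p = 0.00159), from 45.6 ± 21.2 to 5.24 ± 0.395 CPM. Leaving out control library 4 gave -2.68 ± 0.11 (edgeR adjusted p = 3.40e-09), a mean 6.40-fold lower than in control libraries 5 and 6, and the Ccl11 call was kept in all 13 alternative analyses, with adjusted p from 1.01e-23 to 0.0140.

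Ccl8, which in the mouse acts through Ccr8 on T helper cells, was lower in every co-culture library than in any control. It was at 8.96, 6.84 and 6.15 CPM in co-culture and at 60.5, 15.1 and 14.1 CPM in control libraries 4, 5 and 6. The size of its difference depended on control library 4, which held 4.14 times the mean of the other controls. With all libraries Ccl8 missed the threshold (log2 fold change -2.03 ± 0.60, edgeR adjusted p = 0.0567). When control library 4 was left out it fell by 0.997 on the log2 scale, with an SE of 0.14 (edgeR adjusted p = 1.67e-04), and over the 13 alternatives the adjusted p ran from 1.67e-04 to 0.177, with 4 past the threshold.

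The 250 bases before the start of Ccl8, the neighbour of Ccl11 and Ccl12 that was also lower in every co-culture library, are shown (RefSeq, GRCm38.p6, chr11:82114935-82115184, plus strand), with a TATA box in capitals at 32 to 27 bases before the start.
Ccl8: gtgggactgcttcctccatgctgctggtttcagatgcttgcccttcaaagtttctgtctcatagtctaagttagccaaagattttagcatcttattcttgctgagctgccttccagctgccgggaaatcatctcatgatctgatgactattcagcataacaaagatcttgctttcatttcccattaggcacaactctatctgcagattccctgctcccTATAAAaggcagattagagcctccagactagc
The letters TATAAA, searched on the plus strand, were found in 7.59% of 32851 such windows. Searched on both strands, a loose NF-kB pattern (GGG and CC with 5 free bases between, in 45.8% of windows), a STAT6 pattern (TTC and GAA with 4 free bases between, 5.85%), TTCNNNGAA (other STAT factors, 7.02%), TGANTCA (AP-1, 6.75%) and TTNNGNAA (C/EBP, 36.8%) had no match in this window. Matches of different patterns may overlap. Of the 6 genes, Ccl8 and Ccl9 were matched in the table of promoter sequences. The window of Ccl9, searched in the same way, held an NF-kB match at 35 to 26 bases before the start, an AP-1 match at 53 to 47, TATAAA at 92 to 87 and C/EBP matches at 75 to 68 and 38 to 31, the last of which overlaps the NF-kB match.

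Ccl2, the main attractant of monocytes through Ccr2, was at 300, 390 and 339 CPM in co-culture and at 652, 239 and 228 CPM in control libraries 4, 5 and 6. The groups overlapped in an uneven way: every co-culture library lay above control libraries 5 and 6 and below control library 4. With all libraries Ccl2 did not pass (-0.12 ± 0.41, edgeR adjusted p = 0.855). Leaving out control library 4, it rose by 0.55 ± 0.09 (edgeR adjusted p = 4.12e-04), or 1.47-fold. Over the 13 alternatives the adjusted p of Ccl2 ran from 4.12e-04 to 0.975, with 2 past the threshold.

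Ccl7, which shares the receptor Ccr2 with Ccl2 and also attracts monocytes, had the same arrangement. Its levels were 116, 127 and 114 CPM in co-culture and 247, 72.8 and 75.4 CPM in control libraries 4, 5 and 6. Control library 4 thus lay at 3.33 times the mean of the other controls, and co-culture lay between. All libraries together gave -0.15 ± 0.47 (edgeR adjusted p = 0.845), whereas without control library 4 Ccl7 rose by 0.68 ± 0.06, or 1.60-fold (edgeR adjusted p = 4.02e-06; 4.02e-06 to 0.920 over the 13 alternatives, 2 past the threshold). Neither direction for Ccl2 or Ccl7 can be given without saying whether control library 4 is counted.

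Ccl5, a T cell attractant known as RANTES, was scarce, with 9 to 22 reads per library. Its levels were 1.15, 0.993 and 0.481 CPM with epithelium, against 1.17, 0.881 and 0.760 CPM without, and the groups overlapped throughout (-0.09 ± 0.36, edgeR adjusted p = 0.875). Ccl9, a mouse chemokine that binds Ccr1, was at 3.91, 1.93 and 2.83 CPM with epithelium, against 4.70, 2.97 and 2.50 CPM in controls. Its groups overlapped as well (-0.22 ± 0.33, edgeR adjusted p = 0.667). At this depth a difference in Ccl5 or Ccl9 was not detectable in any of the 13 alternatives, and the standard errors of 0.36 and 0.33 leave room for changes either way.

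**Figure D2:**
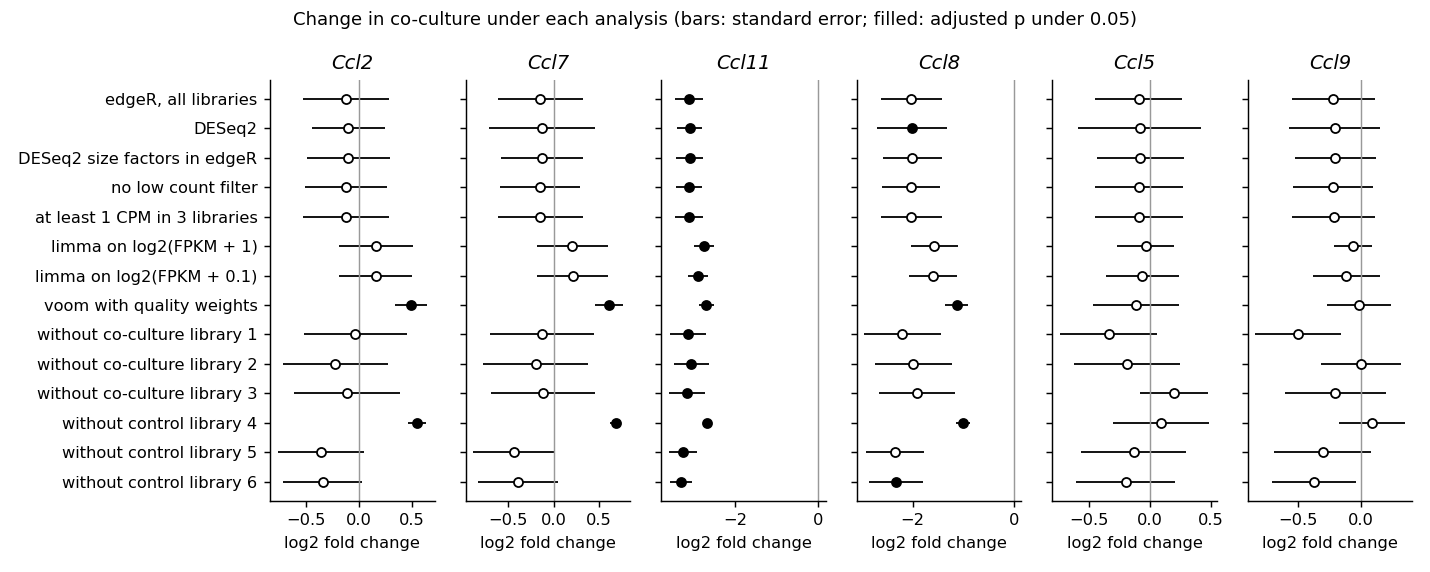
Log2 fold change of each gene, co-culture over control, in the analysis with all libraries and in 13 alternatives, with bars for the standard error and filled points for an adjusted p under 0.05; horizontal scales differ between panels. Ccl11 is filled in every row, from -3.31 to -2.68, whereas Ccl2 and Ccl7 turn positive and are filled in 2 rows, those without control library 4 and with quality weights.

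Per implied length of transcript, the order of the 6 was the same in every library: Ccl2, Ccl7, Ccl8, Ccl11, Ccl5 and Ccl9, from high to low. The unit is FPKM (reads per length of transcript and size of library, from the TMM-scaled counts and the lengths the deposited values imply). The implied lengths of Ccl8 and Ccl5 were 236 and 258 bases, shorter than their coding sequences of 291 and 273 bases. By CPM, Ccl8 was below Ccl11 in control libraries 4, 5 and 6 (60.5, 15.1 and 14.1 against 69.9, 36.3 and 30.7). Its place above Ccl11 in controls thus rests on that short length. In co-culture Ccl2 was at 648 ± 85.0 FPKM, Ccl7 at 227 ± 13.3 FPKM, Ccl8 at 31.0 ± 6.21 FPKM, Ccl11 at 6.59 ± 0.497 FPKM, Ccl5 at 3.39 ± 1.35 FPKM and Ccl9 at 1.06 ± 0.362 FPKM. No neighbours in that order overlapped there. In controls Ccl2 was at 704 ± 456 FPKM, Ccl7 at 251 ± 190 FPKM, Ccl8 at 127 ± 112 FPKM and Ccl11 at 57.4 ± 26.6 FPKM, and with control library 4 at the top the ranges of these neighbours overlapped. Ccl5 and Ccl9 followed at 3.64 ± 0.826 and 1.24 ± 0.423 FPKM, apart from each other and from Ccl11.

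Ccl2 was among the most abundant transcripts of these cells, at percentile 98.7 to 99.1 of the tested genes by FPKM. Ccl11 was at percentile 82.0 to 90.3 in controls and 35.8 to 39.1 in co-culture. Of the summed FPKM of the 6 genes, Ccl11 made up 4.28% to 6.48% in controls and 0.593% to 0.804% in co-culture. Ccl8, with its short implied length, made up 8.85% to 12.5% in controls and 2.85% to 4.53% in co-culture. Shares of Ccl2 were 60.0% to 64.1% in controls and 67.6% to 72.3% in co-culture, and for none of these shares did the groups overlap, with control library 4 among the controls. Shares of one sum are tied together, so lower shares of Ccl8 and Ccl11 by themselves raise that of Ccl2. The higher share is thus no separate result, and the levels of Ccl2 overlapped between groups.

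Ratios between 2 genes within a library do not depend on how libraries are scaled. The log2 ratio of Ccl11 to Ccl2 counts was -5.80, -6.34 and -5.93 in co-culture and -3.22, -2.72 and -2.89 in control libraries 4, 5 and 6. Groups lay more than 2 log2 units apart, and control library 4 sat with the other controls. The mean difference was -3.08, and it was -3.13 for Ccl11 against Ccl7, -2.79 against Ccl9 and -1.33 against Ccl8. Each of the 4 ratios gave p = 0.1 in an exact two-sided permutation test, both before and after Benjamini-Hochberg adjustment, which is the smallest p that 3 against 3 libraries allow. Against Ccl8 the gap was narrowest, with control library 4 at 0.21 and the highest co-culture library at -0.15. Ccl5 had under 10 reads in 1 library and was not used for a ratio.

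**Figure D3:**
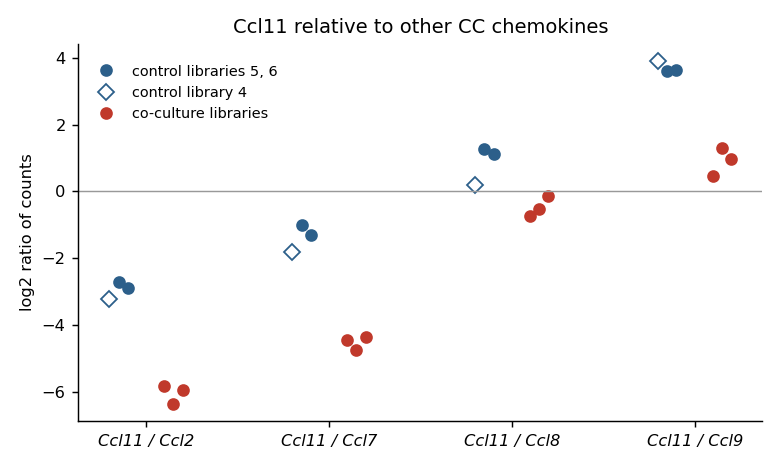
Log2 ratio of Ccl11 counts to the counts of Ccl2, Ccl7, Ccl8 and Ccl9 in each library, with controls in blue, control library 4 as an open diamond and co-culture in red. All co-culture points lie below all control points, by a mean of -3.08 for Ccl2, -3.13 for Ccl7, -1.33 for Ccl8 and -2.79 for Ccl9.

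Ccl11 lies 10.3 kb beyond Ccl7, and these neighbours differed in what they did relative to control libraries 5 and 6: on the log2 scale Ccl7 was 0.62 to 0.77 higher in co-culture and Ccl11 was at -2.81 to -2.59. Ccl12, a monocyte attractant and the next gene, had 2, 2 and 6 reads in co-culture and 28, 6 and 6 in control libraries 4, 5 and 6, too few to be tested. Control library 4 exceeded the mean of control libraries 5 and 6 by 1.06 to 2.40 log2 units at all 5 genes from Ccl2 to Ccl8. Over all tested genes the ratio of control library 4 to these controls had a median of 0.995, and 7.23% of genes were at least 2-fold higher there, among them Ccl2, Ccl7, Ccl8 and Ccl11.

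**Figure D4:**
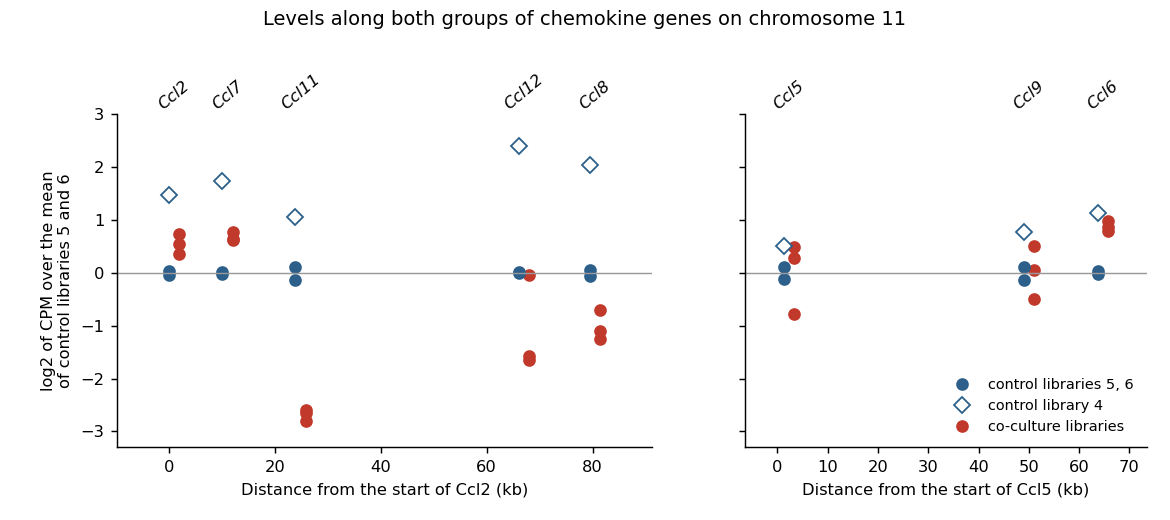
Log2 of the CPM in each library over the mean of control libraries 5 and 6, plotted against distance (kb) from the start of the first gene in each of the 2 groups of chemokine genes, with controls in blue, control library 4 as an open diamond and co-culture in red, set slightly to the side so that points can be told apart. Ccl11 lies between -2.81 and -2.59 in co-culture while Ccl2 and Ccl7 on its left lie above 0, and control library 4 is above 0 at all 8 genes plotted; Ccl1, Ccl3 and Ccl4, with at most 5 reads in any library, are not plotted, and the Ccl12 points rest on 2 to 28 reads.

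Genes whose levels followed those of Ccl11 most closely over the 6 libraries were Ap1s2, an adaptor subunit of vesicle coats, Folh1, a glutamate carboxypeptidase, C1qtnf2, a secreted C1q-like protein, and Igfbp7, a secreted IGF-binding protein. Their Pearson correlation of log2 CPM with Ccl11 was 0.999, 0.999, 0.999 and 0.998, as a description over 6 libraries that share depth and scaling. All 4 fell (edgeR adjusted p = 0.00205, 0.00279, 0.00104 and 0.00139), with log2 fold changes of -1.35, -1.76, -2.26 and -0.97. Since they were picked for following Ccl11 in these same libraries, their fall was given by the choice and adds no separate support. Ap1s2, the closest, was at 61.1 to 65.7 CPM in co-culture and at 205, 147 and 136 CPM in control libraries 4, 5 and 6. Its order of the controls is that of Ccl11, which also follows from the choice.

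None of the other CC chemokines passed with all libraries. Of 18 listed, 12 were analysed here and 5 tested, and 0 rose or fell by edgeR's quasi-likelihood test and 0 by DESeq2. By edgeR, 10.3% of all tested genes rose and 10.3% fell, and by DESeq2 1090 genes rose and 1102 fell. At these shares, 0 calls among 5 genes does not set them apart. At an unadjusted p under 0.05 in edgeR there were 2, Ccl28 and Ccl27b, both higher in co-culture (log2 fold changes 0.56 ± 0.22 and 1.10 ± 0.45, edgeR adjusted p = 0.128 and 0.131). Ccl6, a macrophage-attracting relative of Ccl9 in the mouse, was at 15.9, 14.0 and 14.8 CPM in co-culture and at 17.9, 8.26 and 7.93 CPM in control libraries 4, 5 and 6, the same arrangement as Ccl2 and Ccl7. Ccl6 did not pass with all libraries (0.40 ± 0.31, edgeR adjusted p = 0.398) and rose by 0.88 ± 0.11 on leaving out control library 4 (edgeR adjusted p = 4.74e-05), with adjusted p up to 0.669 over the 13 alternatives. Ccl28, an epithelial chemokine, was at 3.05 ± 0.0667 and 2.06 ± 0.621 CPM and Ccl25, known from thymus and gut, at 2.10 ± 0.352 and 2.95 ± 1.03 CPM, in co-culture and controls. Ccl27b, at 2.15 ± 0.759 and 0.975 ± 0.535 CPM, has a near-identical copy in Ccl27a, so its counts are uncertain.

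Receptors for these ligands were scarce in the same cells. Of 15 listed, 8 were analysed here and 1 had enough reads to be tested: Ccr1, a receptor for Ccl5, Ccl7 and Ccl9, was at 0.573, 0.662 and 0.535 CPM in co-culture and at 3.46, 1.76 and 1.90 CPM in controls. The groups did not overlap, and Ccr1 fell by 1.99 with an SE of 0.34 (edgeR adjusted p = 0.00946), and by 1.63 when control library 4 was not used. In that setting Ccr10 and Ccrl2 were tested too, and Ccrl2, an atypical receptor, fell by 2.15 (edgeR adjusted p = 0.0121), from 0.551 and 0.760 CPM in control libraries 5 and 6 to 0.0521, 0.221 and 0.160 CPM in co-culture. Ccrl2 had 10 and 14 reads in those controls and 1, 4 and 3 in co-culture. It passed the filter on low counts only through the controls, so the call carries little weight. With all libraries 10.3% of tested genes fell and 10.3% rose, and without control library 4 these shares were 19.9% and 18.7%. Of 22 markers of macrophages and other leukocytes, 13 were tested, 4 fell, 1 rose and 8 did not pass, or 6 fell and 1 rose if control library 4 is not used. Those that fell were Csf1r (-1.39), C1qa (-1.17), C1qb (-1.01) and C1qc (-0.76), with edgeR adjusted p = 0.00562, 0.0108, 0.00165 and 0.00824; C1qa was lost without co-culture library 1 (0.0523). Mrc1, the mannose receptor of macrophages, rose by 0.55 ± 0.12 (edgeR adjusted p = 0.0248; lost on leaving out any 1 co-culture library, or control library 5, with up to 0.0947 over the 13 alternatives). Their summed level was 82.6 to 90.8 CPM in co-culture, 164 CPM in control library 4 and 108 to 116 CPM in control libraries 5 and 6, while Ptprc, carried by all leukocytes, was at 0.221 to 0.716 CPM. In bulk RNA, fewer cells of a type and less RNA per cell cannot be told apart, and the part of such cells in the fall of Ccl11, Ccl8 or Ccr1 was not tested.

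Fibroblast markers moved in both directions. Of 13 listed and 10 tested, 4 fell and 1 rose, or 5 and 4 if control library 4 is not used. Among all tested genes, 10.3% fell and 10.3% rose, or 19.9% and 18.7% without that library. The 4 that rose without it were Dpt, Lum, Dcn and Ly6c1 (log2 fold changes 1.21, 0.55, 0.22 and 1.70), and Gsn (-0.34) joined those that fell. The summed level of the fibroblast markers was 2483 to 2575 CPM in co-culture, 2699 CPM in control library 4 and 2655 to 2698 CPM in the other controls. Gsn was the largest part of that sum, at 981 to 1069 CPM in co-culture and 1151 to 1306 CPM in controls. Pdgfra, the next largest, leaned the other way, at 792 to 907 CPM and 630 to 805 CPM. The sum thus follows Gsn and does not speak for the list as a whole. Col14a1, a collagen of adventitial fibroblasts, was at 4.74 to 6.01 CPM with epithelium, against 31.0 to 45.9 CPM in controls, and Mfap5, a microfibril protein, at 16.3 to 18.2 and 39.1 to 77.9 CPM. Both fell (edgeR adjusted p = 2.14e-04 and 0.00885), as did Scara5 (-1.13 ± 0.12, edgeR adjusted p = 0.00152) and Tcf21 (-0.99 ± 0.26, edgeR adjusted p = 0.0415, lost in 5 of the 13 alternatives: with DESeq2 and on leaving out co-culture library 1, co-culture library 2, control library 5 and control library 6 in turn, up to 0.14), whereas Dpt rose by 0.98 ± 0.17 (edgeR adjusted p = 0.00912). Of 13 epithelial markers 10 were analysed here and 2 tested, 1 of which fell and 1 rose, with or without control library 4. Krt18, a simple keratin, fell from 15.8 to 24.1 CPM in controls to 4.17 to 4.91 CPM in co-culture (-2.19 ± 0.18, edgeR adjusted p = 6.08e-04), and Trp63, a basal cell factor, rose from 0.618 to 0.978 CPM to 3.07 to 3.26 CPM (1.93 ± 0.19, edgeR adjusted p = 0.0012). The summed level of the 10 was 8.90 to 9.87 CPM in co-culture, against 18.0 to 26.6 CPM in controls, and of the 9 other than Krt18 it was 4.37 to 4.96 CPM, against 2.23 to 3.14 CPM. Epcam was at 0.124 to 0.716 CPM. The part of these cells in the chemokine results was not tested.

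Several genes of the NF-kB route, a known inducer of these chemokines, rose. Over all tested genes, 10.3% rose and 10.3% fell. Of 28 tested genes of TNF, IL-1 and IL-17 signalling to NF-kB, 12 rose and 0 fell (median 0.17). They included the IL-1 receptor Il1r1, from 129 ± 10.9 to 251 ± 9.13 CPM (0.95 ± 0.08, edgeR adjusted p = 6.48e-04), the NF-kB subunit Relb (0.82 ± 0.10, edgeR adjusted p = 0.00297), the nuclear cofactor Bcl3 (1.03 ± 0.14, edgeR adjusted p = 0.00355) and the feedback inhibitors Nfkbie (1.42 ± 0.15, edgeR adjusted p = 0.00156) and Tnfaip3 (1.20 ± 0.17, edgeR adjusted p = 0.00446). Ccl11, a known target of that route, fell in the same libraries. Ccl2, another, did not pass with all libraries and rose without control library 4 (edgeR adjusted p = 4.12e-04). The part of the route in the chemokine results was not tested. In the absence of control library 4, 12 genes of the route list rose and 4 fell, against 18.7% and 19.9% of all tested genes.

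Genes of IL-4 and IL-13 signalling, which drive eotaxin in muscle and epithelium, were 11 tested, of which 5 rose and 0 fell (median 0.59). Among all tested genes, 10.3% rose and 10.3% fell. The receptor chain Il13ra1 rose from 53.4 ± 6.08 to 95.1 ± 4.37 CPM (0.83 ± 0.09, edgeR adjusted p = 0.00184). The other chain, Il4ra, at 84.4 ± 4.42 and 82.4 ± 9.50 CPM in co-culture and controls, and Stat6, at 126 ± 5.39 and 124 ± 10.8 CPM, did not pass (edgeR adjusted p = 0.830 and 0.879). The signalling inhibitors Socs1 and Socs3 rose by 1.30 ± 0.16 and 1.08 ± 0.10 (edgeR adjusted p = 0.00239 and 9.24e-04), the kinase Jak2 rose by 0.61 ± 0.07 (edgeR adjusted p = 0.0016) and Jak3 by 0.59 ± 0.12 (edgeR adjusted p = 0.016; the call did not survive leaving out any 1 co-culture library, or control library 6, with 0.00234 to 0.064 over the 13 alternatives). Once control library 4 was left out, 6 rose and 2 fell, against 18.7% and 19.9% of all tested genes.

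Beside 10.3% rising and 10.3% falling over all tested genes, or 18.7% and 19.9% without control library 4, the decay of chemokine messages was looked at. Of 9 tested genes for proteins that act on it, 3 rose and 0 fell (median 0.08), or 3 and 1 if control library 4 is not used. The gene that then fell was Elavl1 (HuR), known to stabilise such messages (-0.18, edgeR adjusted p = 0.0498). Zc3h12a, the RNase regnase 1, rose from 16.6 ± 2.43 to 29.5 ± 1.80 CPM (0.83 ± 0.12, edgeR adjusted p = 0.00561). Zfp36l1 and Hnrnpd, which bind AU-rich elements, rose by 0.52 ± 0.09 and 0.31 ± 0.06 (edgeR adjusted p = 0.0113 and 0.0156). The call of Zfp36l1 was lost without co-culture library 2 or 3 and that of Hnrnpd on leaving out any 1 co-culture library, or control library 5, with adjusted p up to 0.0537 and 0.0717 over the 13 alternatives, so that 1 of the 9 rose without co-culture library 2 or 3. Rises over all genes dropped from 1333 to 705 and 612 without co-culture libraries 2 and 3.

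Among 20 tested genes for proteases that clip chemokines and for the heparan sulfate that holds them at the cell surface, 10 fell and 3 rose (median -0.22). Shares over all tested genes were 10.3% for falls and 10.3% for rises. Mmp2, a gelatinase known to clip Ccl7, fell from 1596 ± 158 to 973 ± 24.7 CPM (-0.71 ± 0.10, edgeR adjusted p = 0.00478). Of the heparan sulfate genes, the sulfotransferase Hs6st1 and the sulfatase Sulf1 fell by 0.83 and 0.83 (edgeR adjusted p = 0.00283 and 0.00282), and the carrier protein Sdc1 (syndecan 1) rose by 0.55 ± 0.06 (edgeR adjusted p = 0.00184). Mmp8, a neutrophil collagenase, rose from 1.38 ± 0.240 to 6.08 ± 0.261 CPM, and Fap, a fibroblast protease, fell from 222 ± 54.6 to 98.8 ± 11.8 CPM (edgeR adjusted p = 3.65e-04 and 0.00693). Mmp12, a macrophage elastase, fell from 3.32 ± 0.982 to 1.02 ± 0.51 CPM (edgeR adjusted p = 0.0209; lost without co-culture library 1 or 2, with up to 0.0838 over the 13 alternatives). Mmp9, a gelatinase, rose by 0.85 ± 0.18 (edgeR adjusted p = 0.0196; lost on leaving out co-culture library 2, co-culture library 3 and control library 6 in turn, up to 0.0766). Genes of the list that fell numbered 5 without co-culture library 1, 6 without the third co-culture library, 6 without control library 6, and 5 on the log2(FPKM + 1) and log2(FPKM + 0.1) scales. Falls over all genes dropped as well, from 1330 to 615, 598, 761, 656 and 663 in these settings, in the same order. Without control library 4, 13 fell and 3 rose, against 19.9% and 18.7% of all tested genes.

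Of 8 tested genes for other chemokines, 7 of the CXC family and Cx3cl1, 2 rose and 2 fell. The shares among all tested genes were 10.3% and 10.3%. Cxcl5 and Cxcl1, which attract neutrophils, rose by 5.05 ± 0.22 and 2.55 ± 0.19 (edgeR adjusted p = 6.83e-05 and 4.54e-04), and Cxcl12 and Cx3cl1 fell by 0.64 ± 0.08 and 0.77 ± 0.14 (edgeR adjusted p = 0.00243 and 0.0116; for Cx3cl1 lost without co-culture library 1 or 2, up to 0.0524 over the 13 alternatives). Cxcl1 stood at 10.2 ± 0.158 CPM in co-culture, against 1.74 ± 0.496 CPM in controls. Cxcl5 had 5, 9 and 8 reads in control libraries 4, 5 and 6, and passed the filter on low counts through co-culture. Without control library 4, 3 rose and 2 fell, against 18.7% and 19.9% of all tested genes.

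**Figure D5:**
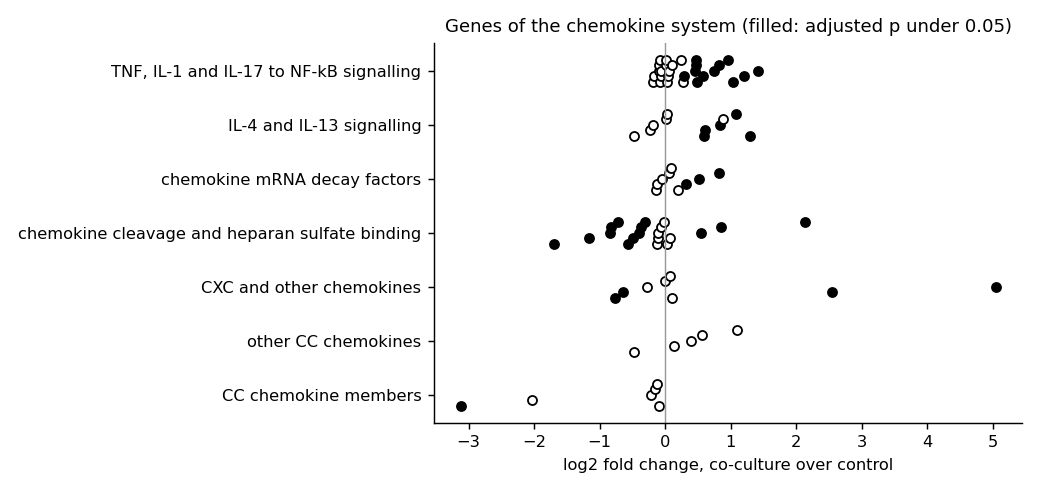
Log2 fold change, co-culture over control with all libraries, of each tested gene in 7 lists of the chemokine system, with filled points for an adjusted p under 0.05. In the NF-kB list 12 of 28 genes are filled, all to the right of 0, and among the 6 CC chemokines Ccl11 alone is filled, at -3.12.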

How the data were processed

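HISAT was the aligner, per the labels' protocols, and mm10 the genome build, per the submitters' processing notes. No source used here names the counting program, strandedness or annotation. The deposited estimated counts per gene and transcript need not be whole, and 11.8% of the gene counts are not (tolerance 0.001). Deposited FPKM of the co-culture libraries, the authors' counts per length and depth per the file headers, served to derive gene lengths. In all, 21 other columns of per-sample values were not used. Control columns are numbered otherwise than the labels, so they were assigned to their group and are named by column number.

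Rounded counts were tested with edgeR 4.0.16 (R 4.3.3; filterByExpr, TMM, quasi-likelihood test, no covariate) on all genes, with Benjamini-Hochberg adjustment and a threshold of 0.05. SE is the absolute log2 fold change over the square root of F. The 13 alternatives used DESeq2 1.42.0, its size factors in edgeR, limma 3.58.1 on log2(FPKM + 1) and log2(FPKM + 0.1), voom with quality weights per library, other filters and each library left out. Coding sequences were aligned with Biopython 1.88. On simulated counts with 50 genes for each of 4 fold sizes, edgeR recovered all 50 at each size, with 7 false calls among 12922 genes. The simulation gave every library the same small spread, held no library set apart like control library 4, and changed only well-counted genes. It checks the code, and cannot tell how many calls are missed or false in the real libraries. Of the gene IDs, 16975 of 17023 matched RefSeq.

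The members and lists were chosen with earlier results of these data known. Named are all 6 members, called genes of each list (not every one), at most 8 uncalled genes per list by mean CPM, neighbours on the chromosome, and the 4 genes most correlated with a called member. Marker genes named beside a result, Ccrl2 and Elavl1 were chosen after their values were seen.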

Additional observations from a re-analysis of the deposited data

How the results depend on the processing

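No paired analysis was possible because the control columns are numbered 4 to 6 and share no number with the co-culture columns. Ccl11 kept its direction and its call in all 13 alternatives. Ccl8 kept its direction and passed with DESeq2 (-2.01) and with quality weights (-1.13), and its change ran from -2.35 to -0.997 with a library left out. With quality weights, Ccl2 and Ccl7 changed by 0.50 and 0.60, and on the log2(FPKM + 1) and log2(FPKM + 0.1) scales by 0.16 and 0.16 and by 0.21 and 0.21. With a library left out, values ran from -0.36 to 0.55 for Ccl2, -0.44 to 0.68 for Ccl7, -0.34 to 0.20 for Ccl5, -0.50 to 0.0856 for Ccl9, -0.059 to 0.11 for Il4ra and -0.051 to 0.077 for Stat6; with quality weights Il4ra and Stat6 were at -0.0364 and -0.0465. Of the 6, 2 rose and 2 fell with quality weights, 2 fell with DESeq2, and 0 to 2 rose and 1 to 2 fell with a library left out. Calls over all genes were 1333 higher and 1330 lower, 2201 and 2488 with quality weights, 612 to 2445 and 598 to 2598 with a library left out, and 1489 and 656 on the log2(FPKM + 1) scale and 1457 and 663 on the log2(FPKM + 0.1) scale. The FPKM scales differ from the main analysis also in lacking TMM scaling, and the cause of these differences was not tested. The 28 ratio alternatives kept their sign. Low counts limit Ccl5, Ccl9, Ccl12, Ccr1 and Ccrl2.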
